A study of Homo sapiens with 3 samples.

Results

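The genes described here carry glucose uptake, glycolysis and the response to low oxygen in KYSE140 cells, a long-established line grown from a human squamous carcinoma of the oesophagus. The list names 32 genes. A gene was measured where the platform annotation gave at least 1 probe set that symbol and no other, and 31 of the 32 were, of 19775 genes in all. CA9, a carbonic anhydrase and a standard hypoxia marker, had no such probe set and was not analysed here. RNA was taken from untreated cells (1 array) and from cells exposed for 12 h to cisplatin, a DNA-crosslinking platinum compound, on 2 arrays titled B1 and B2. The labels give the dose as 10 mM, a unit that is in doubt because cell culture work with cisplatin generally uses micromolar doses. All 3 arrays share the cell line, RPMI medium with serum and antibiotics, and Trizol extraction. Whether B1 and B2 were separate cultures is not stated in the labels, so the spread between them may be technical, and no oxygen level is named.

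Glycolysis splits glucose into pyruvate in the cytosol, and lactate dehydrogenase then turns pyruvate into lactate. When oxygen falls, prolyl hydroxylases of the EGLN family stop marking the HIF1A protein for destruction. HIF1A then pairs with ARNT, binds short hypoxia response elements in DNA and switches on glucose transporters, most glycolytic enzymes, PDK1, VEGFA and others. HIF1A is controlled mainly through the stability of its protein, which an expression array does not measure, and squamous carcinomas are known for high glucose uptake.

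Each array gave 1 intensity per probe set, on a linear scale, and the 31 members were covered by 67 probe sets. Each gene is represented below by its brightest probe set over the 3 arrays, and differences are log2(cisplatin array) minus log2(untreated array). Bright and dim probe sets are not comparable between genes. B2 stood apart: the log2 difference had, over all genes, an SD of 0.33 for B1 minus untreated, 0.60 for B2 minus untreated and 0.56 for B2 minus B1. Of 11 squamous epithelial markers 8 were measured, the general epithelial genes EPCAM and CDH1 among them. Their summed intensity was 14939 untreated, 11548 on B1 and 20768 on B2, and such a sum leans on the brightest genes. Of the 8, 2 were higher and 2 lower on both cisplatin arrays and 4 had opposite signs, with median log2 differences of -0.08 on B1 and 0.79 on B2. KRT5, a basal keratin, was at 1217, 1345 and 4251 in that order, and SOX2, a squamous lineage factor, at 5656, 2416 and 5308. Markers of other cell types were dim and their sums were similar on all 3 arrays, with summed intensities of 273 to 308 for fibroblasts (7 of 7 markers), 89.0 to 96.0 for leukocytes (4 of 6) and 104 to 119 for endothelium (5 of 5). Single markers differed more, those of endothelium from -0.70 to 0.43 on B1 and from -0.59 to 0.28 on B2. No gene of those 3 lists went above an intensity of 159, and what part the differing squamous markers had in the results below was not tested.

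The list as a whole showed no common direction. ANKRD37 was about 2-fold higher on both cisplatin arrays, and EGLN3, a dim gene, was higher on both by less. HK2, SLC2A1 and EGLN1 were lower on both, EGLN1 mainly on B2, and most of the other large differences were seen on B2 alone. No member passed limma's moderated test (0 of 31, and 0 of 19775 genes, or 0%, at a Benjamini-Hochberg adjusted p of 0.05). The smallest adjusted p over all genes was 0.969. At an unadjusted p under 0.05 in the same limma fit there was 1 member, ANKRD37, higher (0.764% of all genes were higher and 2.09% lower at that level). The standard errors (SE) given below come from that fit, which rests on 1 residual degree of freedom, and they ranged from 0.18 to 0.71 over the members. Moderation draws on the spread over all genes and sets a floor. ABO, with an SD of 0 between B1 and B2, still had an SE of 0.18. By size, 0 members were at least 2-fold higher on both cisplatin arrays (0.142% of all genes) and 0 were at least 2-fold lower (0.678%). At 1.5-fold there were 1 higher, ANKRD37 (0.956% of all genes), and 0 lower (2.65%).

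By sign alone, 8 of the 31 members were higher on both cisplatin arrays (25.8%, against 39.2% of all genes), 13 were lower on both (41.9%, against 27.4%), and 10 had opposite signs (32.3%, against 33.0%). On B1 by itself 11 members were higher (55.0% of all genes) and 20 lower (44.8%), and on B2 by itself 15 were higher (56.6%) and 16 lower (43.3%). The median log2 difference of the members was -0.04 on B1 and -0.04 on B2, beside 0.03 and 0.05 over all genes. When each member's differences were first averaged over B1 and B2 the median was 0.02, beside 0.04 over all genes, so the sign of the members' median depended on that order of steps. Among the 10209 genes with a mean log2 of at least 6, the medians on B1 and B2 were -0.02 and -0.01. Those of the 30 members kept there were -0.05 and -0.05, so members and genes lay closer together. The shares by sign were taken over all genes, dim ones included. With the mean of all probe sets in place of the brightest, 10 members were higher and 10 lower on both arrays. Shares of all genes were not taken that way. B1 and B2 are set against the same untreated array, so their differences are not independent of each other.

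**Figure D1:**
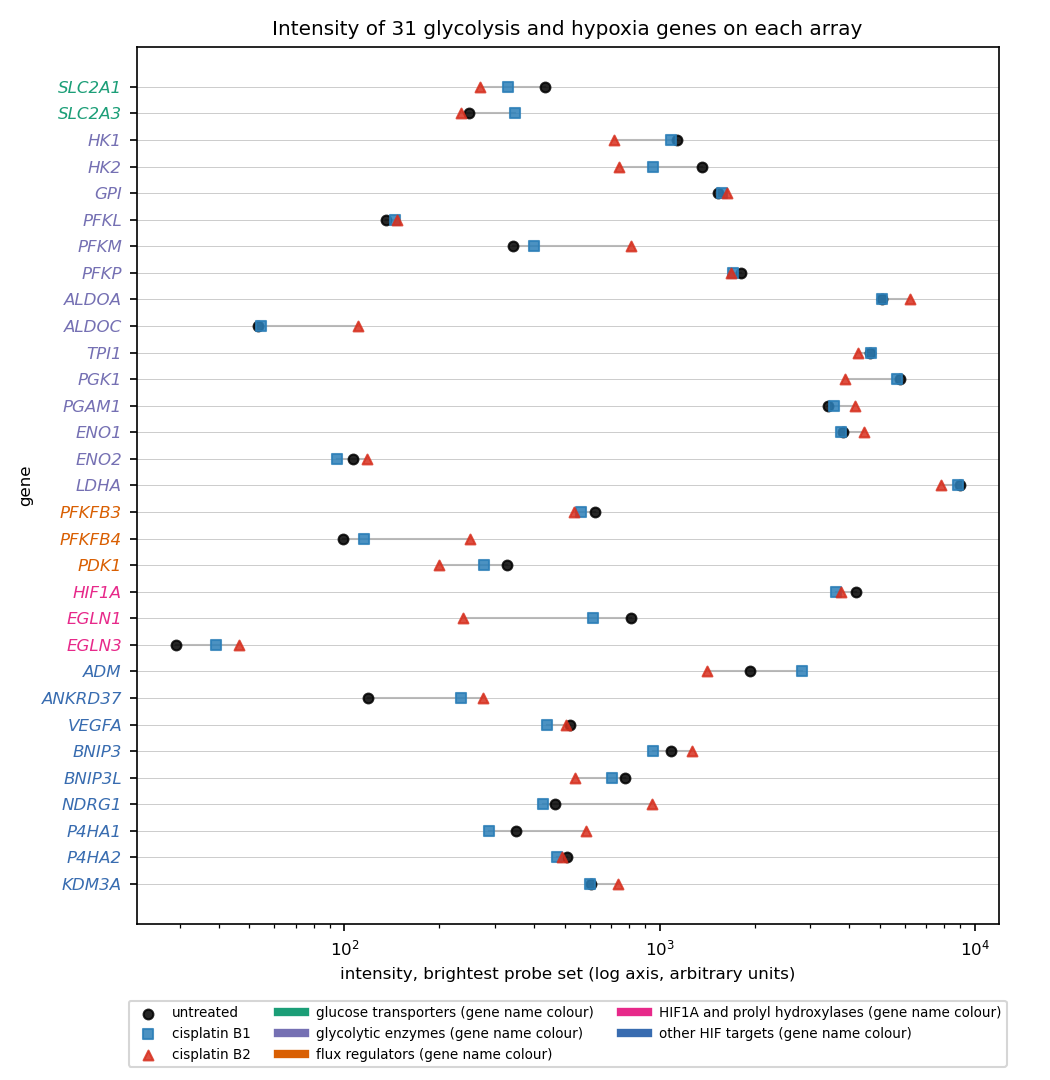
Intensity (log axis, arbitrary units) of the brightest probe set of each of the 31 measured genes on the untreated array (black circles), cisplatin B1 (blue squares) and cisplatin B2 (red triangles); a grey line joins the lowest and highest array, and the colour of a gene's name gives its role. For most genes the blue square lies near the black circle, while for PFKM, ALDOC, PFKFB4, EGLN1 and NDRG1 the red triangle lies at least 2-fold away from the circle.

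Glucose enters the cell through the transporters of the SLC2A family, and the 2 members of that family did not go the same way. SLC2A1 (GLUT1), the basal transporter and a classic HIF1A target, had intensities of 432 untreated, 331 on B1 and 270 on B2. Both cisplatin arrays were lower, by 1.31-fold and 1.60-fold (log2 differences -0.38 and -0.68, mean -0.53, SE 0.24). Its second, dim probe set was at 42.9, 46.7 and 27.7, so that it was lower on B2 only. SLC2A3 (GLUT3), a high-affinity transporter, was at 249, 347 and 235, higher on B1 (0.48) and close to untreated on B2 (-0.08). Its 3 probe sets all had a positive difference on B1, from 0.08 to 0.48, and a negative one on B2, from -0.08 to -0.26.

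Hexokinases trap glucose by phosphorylating it. HK2, the inducible form, was at 1363 in the untreated array, 952 on B1 and 742 on B2. It was 1.43-fold lower on B1 and 1.84-fold lower on B2 (log2 differences -0.52 and -0.88, mean -0.70, SE 0.26, adjusted p = 0.969 by limma), and 646 of 19775 genes were at least as low on both arrays. All 3 HK2 probe sets were lower on both arrays, although the other pair, at 121 and 78.0 in untreated cells, differed by only -0.13 to -0.32. HK2 was the sole member at least 0.4 lower on the log2 scale on both arrays (4.84% of all genes were). HK1, the housekeeping form, was at 1133, 1085 and 714, near untreated on B1 (-0.06) and 1.59-fold lower on B2 (-0.67, mean -0.36, SE 0.35).

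The next steps are run by GPI, which isomerises glucose phosphate, and by phosphofructokinase, the main control point of the pathway. GPI was at 1537, 1581 and 1630, with differences of 0.04 and 0.08. The 3 phosphofructokinase genes differed among themselves. PFKM, the muscle-type subunit, was at 343 untreated, 398 on B1 and 809 on B2, so that B2 was 2.36-fold higher and B1 1.16-fold (log2 differences 1.24 and 0.21). PFKL, the liver-type subunit, was at 135, 145 and 147 (0.10 and 0.12), and PFKP, the platelet-type subunit, at 1818, 1708 and 1678 (-0.09 and -0.12). For PFKL and PFKP the cisplatin arrays lay within 0.12 of untreated, which is less than 1 SE (0.18 each). That SE lies at the floor set by the fit, and the SD between B1 and B2 was 0.013 and 0.018.

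Aldolase splits the phosphorylated sugar, and TPI1 interconverts the products. ALDOA, the main aldolase, was at 5085, 5081 and 6213, level with untreated on B1 (-0.001) and 1.22-fold higher on B2 (0.29). Its 3 probe sets were all higher on B2, by 0.24 to 0.45, while on B1 the dimmest was at 0.21 and the other pair within 0.03 of 0. ALDOC, the brain-type aldolase, was at 53.1, 54.5 and 111, so its 2.08-fold difference was on B2 only (log2 differences 0.04 and 1.06). TPI1 was at 4653, 4669 and 4266, with differences of 0.005 on B1 and -0.13 on B2.

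The enzymes of the lower, energy-yielding part of the pathway were close to untreated on B1 and went both ways on B2. PGK1, which makes the first ATP, was at 5808, 5649 and 3866, and B2 was 1.5-fold lower (-0.04 and -0.59, mean -0.31, SE 0.33). Of its 6 probe sets 5 were lower on B2, by -0.42 to -0.78, and the dimmest was at 19.8, 43.6 and 21.3. PGAM1, phosphoglycerate mutase, was at 3421, 3573 and 4156 (0.06 and 0.28). ENO1, the main enolase, was at 3805, 3754 and 4458 (-0.02 and 0.23), and ENO2, the neuronal enolase, at 106, 94.7 and 118 (-0.17 and 0.15). The dimmest of the 4 ENO1 probe sets, at 37.1, 25.3 and 25.3, was lower on both arrays (-0.55 each), whereas the other 3 were higher on B2. LDHA, which makes lactate, was at 8943, 8842 and 7822 (-0.02 and -0.19). For these 5 genes, and for ALDOA and TPI1, the mean difference over both arrays was smaller than its SE. Over the 14 enzymes, 5 were higher and 5 lower on both arrays, with medians of -0.01 on B1 and 0.10 on B2.

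Among the regulators of flux, PFKFB3 and PFKFB4 make the sugar bisphosphate that activates phosphofructokinase, and PDK1 shuts pyruvate out of mitochondria by inhibiting pyruvate dehydrogenase. PFKFB4 was at 98.7 untreated, 115 on B1 and 251 on B2, which was 1.17-fold and 2.54-fold higher (log2 differences 0.23 and 1.34, mean 0.79, SE 0.59). Its dimmer probe set, at 33.8, 37.9 and 49.3, was higher on both arrays too, by 0.16 and 0.55. PFKFB3 was at 623, 561 and 533, lower by about as much on each (-0.15 and -0.23). PDK1 was at 328, 278 and 200, or 1.18-fold and 1.64-fold lower (-0.24 and -0.71, mean -0.48, SE 0.30). Its 3 probe sets were all lower on B2, but on B1 they ran from -0.24 to 0.31.

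The oxygen-sensing genes were HIF1A and the prolyl hydroxylases EGLN1 (PHD2) and EGLN3 (PHD3). HIF1A was at 4198, 3621 and 3761, so both cisplatin arrays were lower by little, 1.16-fold and 1.12-fold (-0.21 and -0.16, mean -0.19, SE 0.19). EGLN1, the main hydroxylase acting on HIF1A and itself a HIF1A target, was at 810, 617 and 238, which was 1.31-fold lower on B1 and 3.40-fold lower on B2 (-0.39 and -1.77, mean -1.08, SE 0.71). That was the most negative difference of any member on B2. Of its 4 probe sets 3 were lower on both arrays, and the others of these 3 were at -0.75 and -0.69 on B2, so the size on B2 rests on the brightest. The remaining, dim probe set, at 12.1, 13.3 and 16.3, was higher on both. EGLN3, the hydroxylase most inducible by hypoxia, was at 29.2, 39.2 and 46.4, which was 1.34-fold and 1.59-fold higher (0.42 and 0.67, mean 0.55, SE 0.22). Its second probe set, at 5.90, 7.22 and 7.73, was higher on both arrays too, by 0.29 and 0.39. The untreated levels of both probe sets lay below the untreated array's median over all probe sets (34.8), where a dim gene cannot be told from an undetected one.

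ANKRD37, an ankyrin repeat protein gene and a direct HIF1A target, had the largest difference of any member that held on both arrays. Its intensity was 119 untreated, 235 on B1 and 276 on B2, with both cisplatin arrays above untreated and 1.18-fold apart from each other. It was 1.98-fold higher on B1 and 2.33-fold higher on B2 (log2 differences 0.98 and 1.22, mean 1.10, SE 0.22, unadjusted p = 0.015 and adjusted p = 0.969 by limma). Only 30 of 19775 genes, ANKRD37 included, were at least as high on both arrays. Its dimmer probe set, at 16.02, 19.2 and 25.3, was also higher on both, by 0.26 and 0.66. That probe set lay below the untreated array's median over all probe sets (34.8), so the size of the difference rests on the brighter one. ANKRD37 and EGLN3 were the only members at least 0.4 higher on the log2 scale on both arrays, 2 of 31 or 6.45%, beside 3.33% of all genes. Of these, EGLN3 is dim, as described above.

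The 8 other members of this group of targets went several ways, and 0 of them were higher on both arrays. ADM, the vasodilator peptide adrenomedullin, was at 1942, 2819 and 1417, higher on B1 (0.54) and lower on B2 (-0.45), so that the cisplatin arrays lay on opposite sides of untreated. VEGFA, the main angiogenic growth factor, was at 518, 438 and 503 (-0.24 and -0.04). Its other 3 probe sets were higher on B2, by 0.24 to 0.44, so the direction for VEGFA depended on the probe set. BNIP3 and BNIP3L, which direct mitochondria to autophagy, went different ways on B2. BNIP3 was at 1085, 952 and 1266 (-0.19 and 0.22), and BNIP3L at 779, 705 and 537 (-0.14 and -0.54), with both BNIP3L probe sets lower on both arrays.

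NDRG1, a stress-response gene strongly induced by hypoxia and by iron loss, was at 467, 426 and 945, lower by 1.10-fold on B1 and higher by 2.03-fold on B2 (-0.13 and 1.02). P4HA1 and P4HA2 encode the collagen prolyl hydroxylase subunits. P4HA1 was at 349, 288 and 585 (-0.28 and 0.74), again with the cisplatin arrays on opposite sides of untreated, while P4HA2 was at 508, 473 and 491 (-0.10 and -0.05). The other P4HA2 probe sets went apart on B2, 1 of them at 203, 223 and 106 (0.14 and -0.94) and the dimmest at 8.35, 10.2 and 13.1 (0.29 and 0.65). KDM3A, a histone demethylase, was at 605, 601 and 740 (-0.01 and 0.29). Of these 9 targets 1 was higher on both arrays, 3 were lower on both and 5 had opposite signs.

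**Figure D2:**
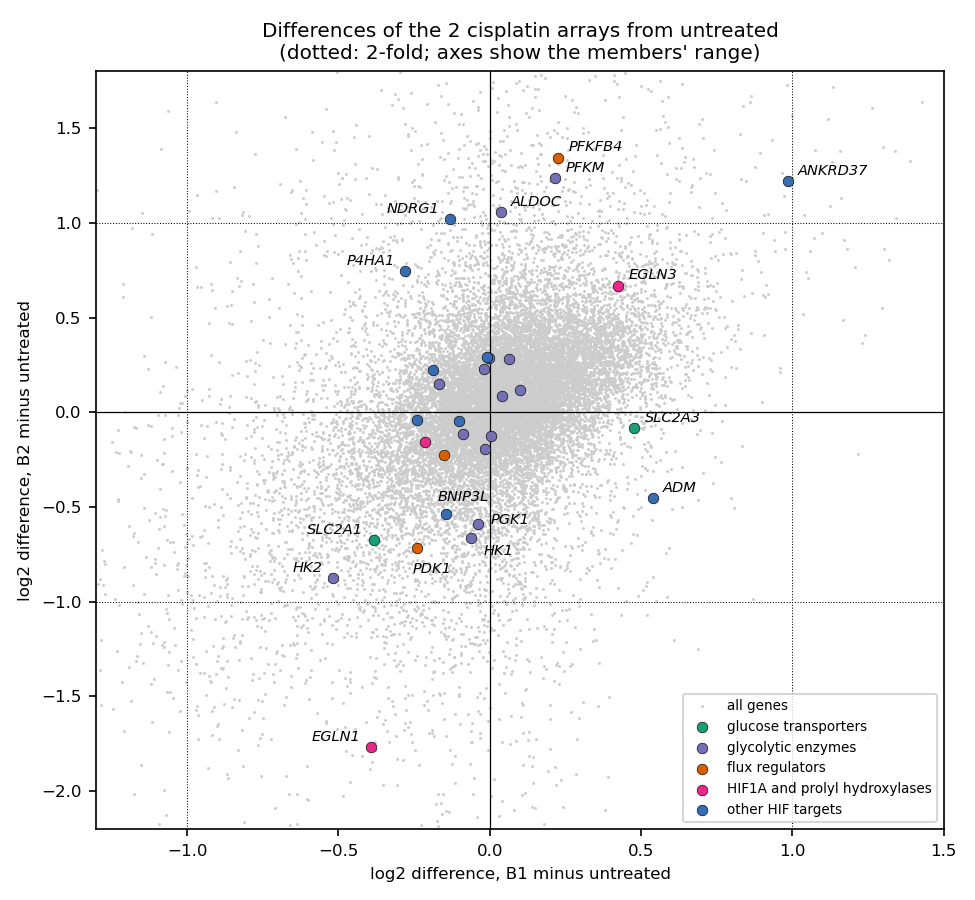
Log2 difference from the untreated array on B1 (horizontal) and B2 (vertical) for all 19775 genes (grey; a few lie beyond the axes) and the 31 members, coloured by role; dotted lines mark 2-fold. ANKRD37 is the member farthest to the upper right, at 0.98 and 1.22, HK2 and EGLN1 lie to the lower left, and PFKFB4, PFKM, ALDOC and NDRG1 lie above 1 on B2 but within 0.23 of 0 on B1.

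The difference between the cisplatin arrays was the main feature of the members' values. On B1 0 members were at least 2-fold from untreated (0.238% of all genes were higher and 1.51% lower by that much). On B2 there were 5 members at least 2-fold higher (PFKM, ALDOC, PFKFB4, ANKRD37 and NDRG1, 16.1% of the members, against 2.99% of all genes) and 1 at least 2-fold lower (EGLN1, 3.23%, against 4.5%). PFKM, ALDOC and NDRG1 have 1 probe set each. Over all their probe sets PFKFB4 and ANKRD37 were at 0.94 on B2 and EGLN1 at -0.70, each short of 2-fold. B1 and B2 were at least 2-fold apart for 6 members (19.4%, against 6.23% of all genes). In 25 of the 31 members B1 lay nearer to untreated than B2 did (80.6%, against 64.1% of all genes). The median absolute log2 difference between B1 and B2 was 0.30 over the members and 0.21 over all genes. In the related lists described below it was 0.30 for other hypoxia targets and 0.29 for other HIF pathway regulators. It was 0.33 for mitochondrial pyruvate entry, 0.31 for the pentose phosphate pathway and 0.09 for other glycolysis and lactate genes. Most of these lists thus resembled the members. The values for all genes include dim ones. A mean log2 of at least 6 was reached by 10209 of the 19775 genes and by 30 of the 31 members. The shares were not taken among those brighter genes alone, so they do not compare genes of like intensity. B1 and B2 carry the same treatment labels, and what sets the members' values on B2 apart was not tested.

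Probe sets of the same gene did not always lie on the same side of untreated. Of the 20 members with more than 1 probe set, 15 had all of them on 1 side on B2 and 9 on B1, a difference that was not tested. With the mean of all probe sets in place of the brightest, the differences of ANKRD37 were 0.62 on B1 and 0.94 on B2, those of EGLN3 0.36 and 0.53, those of HK2 -0.30 and -0.49, and those of SLC2A1 -0.13 and -0.65. EGLN1 was then at -0.19 and -0.70, and PFKFB4 at 0.20 and 0.94.

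**Figure D3:**
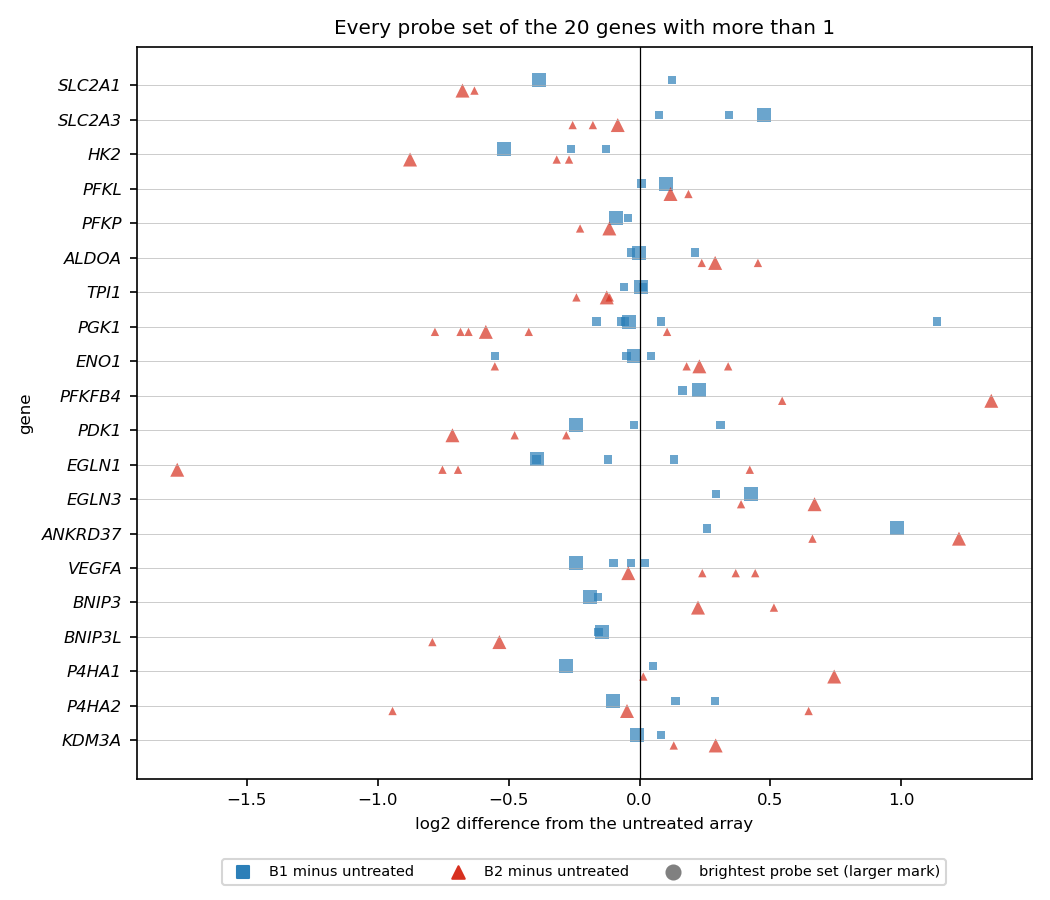
Log2 difference from the untreated array of every probe set of the 20 members that have more than 1, on B1 (blue squares) and B2 (red triangles), with larger marks for the brightest probe set. All marks of ANKRD37 and EGLN3 lie right of 0 and all marks of HK2 and BNIP3L left of 0, while those of VEGFA, PGK1, PDK1 and P4HA2 lie on both sides.

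Genomic span, the length of a gene from end to end on GRCh38.p14, ran from 2.33 kb (ADM) to 182 kb (PFKFB3) among the members, and only 9.68% spanned over 100 kb, against 16.9% of all genes. The 10 members over 50 kb had median differences of -0.18 on B1 and -0.19 on B2, with 7 lower and 0 higher on both arrays. The 21 shorter members had medians of 0.0049 and 0.12, with 6 lower and 8 higher on both. The same split over all genes gave medians of -0.12 and -0.05 over 50 kb (6202 genes, 45.2% lower on both) and 0.07 and 0.10 below it (13525 genes, 19.3% lower on both). After the trend of the difference over span was removed in each array, HK2 was at -0.46 and -0.86, SLC2A1 at -0.41 and -0.74, EGLN1 at -0.34 and -1.75, ANKRD37 at 0.89 and 1.10, and EGLN3 at 0.37 and 0.59. HK1, of 132 kb, was then at 0.08 on B1 and -0.58 on B2.

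Genes of the same pathways outside the list showed a similar mixture, and 0 of them passed limma's adjusted test. Of 16 other glycolysis and lactate genes 4 were higher and 8 lower on both arrays, with medians of -0.03 and 0.01, and those farthest from untreated on both arrays were small: HK3, a further hexokinase (0.24 and 0.31, dim at 36.5 untreated), TIGAR, a phosphatase that works against PFKFB3 (-0.16 and -0.21), and PGAM2, the muscle mutase (0.11 and 0.15, dim at 28.0). On B2 alone the list reached 1.37, for BPGM, a mutase of the glycolytic side path in red cells, at 164, 149 and 424 and named after its values were seen. Among 14 other regulators of the HIF pathway 4 were higher and 4 lower on both, with medians of -0.17 and 0.06. CITED2, which competes with HIF1A for its coactivators and is itself induced by it, was at 191, 451 and 253 (1.24 and 0.41; 0.78 and 0.35 over its 3 probe sets). CREBBP, 1 of those coactivators, was at 380, 204 and 250 (-0.90 and -0.60; -0.33 on average over its 4 probe sets). ARNT, the partner of HIF1A, was at 105, 76.9 and 85.2 (-0.45 and -0.30; -0.14 on average over its 7 probe sets).

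Of 26 other hypoxia targets 6 were higher and 12 lower on both arrays, with medians of -0.11 and -0.10. KDM4B, a histone demethylase, was at 407, 167 and 159 and was the only gene of these lists at least 2-fold lower on both (-1.29 and -1.36), though its mean over 8 probe sets was -0.41. TGFA, a ligand of the epidermal growth factor receptor, was at 669, 439 and 251 (-0.61 and -1.41), and RAB20, a small GTPase, at 748, 558 and 274 (-0.42 and -1.45). On B2 this list ran from -3.73 for HMOX1, haem oxygenase, at 1528, 1738 and 115, to 2.02 for LOX, a collagen crosslinking enzyme, at 50.7, 29.6 and 205, both named after their values were seen. The 13 genes of mitochondrial pyruvate entry had medians of -0.06 on B1 and -0.28 on B2, with 1 higher and 7 lower on both. Of these, PDHX, a structural component of pyruvate dehydrogenase, was at 941, 855 and 453 (-0.14 and -1.05), PDPR, a regulator of its phosphatase, at -0.15 and -0.27, and PC, pyruvate carboxylase, at -0.30 and -0.11. The 6 pentose phosphate genes had medians of 0.04 and -0.07, with PGD (0.09 and 0.49) and PGLS (0.07 and 0.26) higher and RPIA (-0.06 and -0.24) lower on both.

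**Figure D4:**
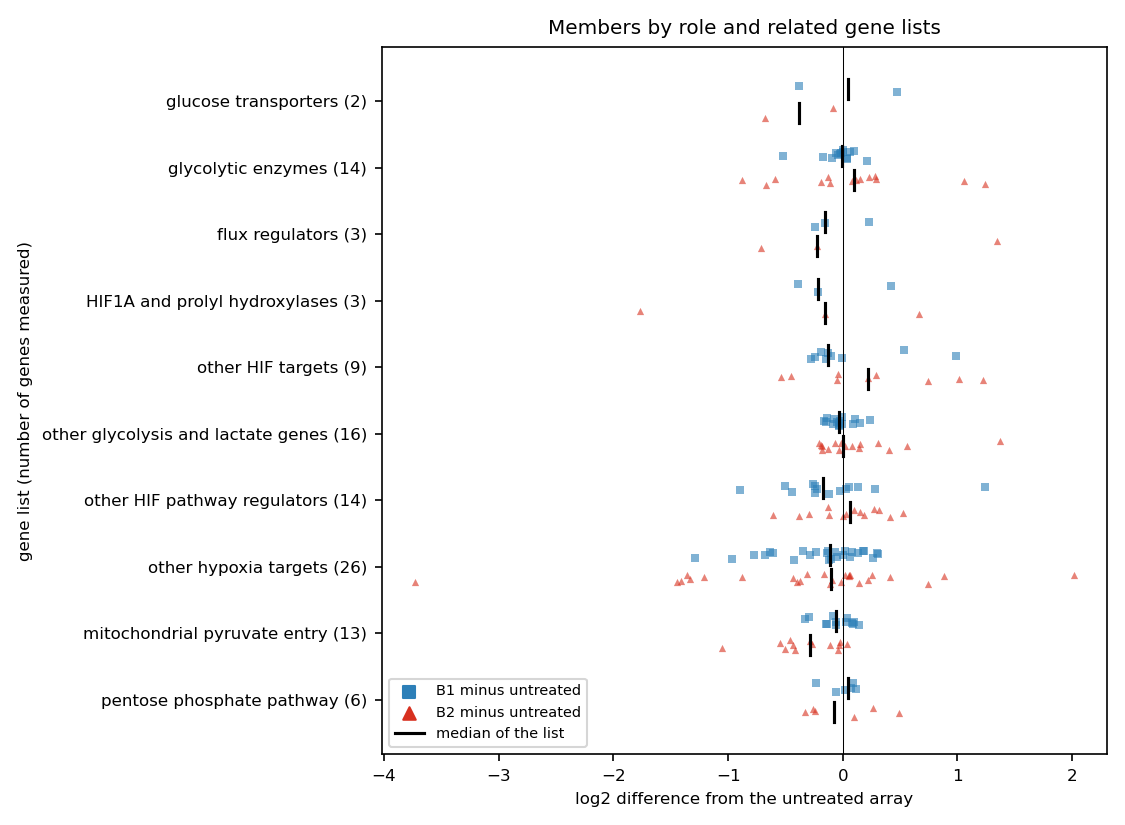
Log2 difference from the untreated array on B1 (blue squares) and B2 (red triangles) for each gene of the 5 groups of members and of 5 related lists, with a black bar at each list's median and the number of genes measured in brackets. Red marks spread more widely than blue ones in the glycolytic enzymes (from -0.88 to 1.24 against -0.52 to 0.21), and the medians of all lists lie within 0.38 of 0.

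Promoter windows were read for the members because many of them are known as direct HIF1A targets, yet their values here differed in direction. RefSeq windows of 300 bases, from 250 before to 50 after an annotated start on GRCh38.p14, were matched to 27 of the 31 members by symbol (51 windows, some of them overlapping, since several genes have more than 1 start). SLC2A3, VEGFA, BNIP3L and NDRG1 were not matched. The letters searched were the core of the hypoxia response element, ACGTG and GCGTG, on both strands. Read on the other strand these are CACGT and CACGC, and overlapping matches were counted as 1 site. The palindrome CACGTG holds the core on both strands and is also the E-box bound by other factors such as MYC. The windows below belong to both of the members higher on both arrays by at least 0.4 (ANKRD37, EGLN3), to the lowest transporter and hexokinase (SLC2A1, HK2), to a gene at least 2-fold higher on B2 and within 0.04 of untreated on B1 (ALDOC) and to a bright gene slightly lower on both (LDHA), and capitals mark the core letters.
ANKRD37 (chr4:185396591-185396890, plus strand): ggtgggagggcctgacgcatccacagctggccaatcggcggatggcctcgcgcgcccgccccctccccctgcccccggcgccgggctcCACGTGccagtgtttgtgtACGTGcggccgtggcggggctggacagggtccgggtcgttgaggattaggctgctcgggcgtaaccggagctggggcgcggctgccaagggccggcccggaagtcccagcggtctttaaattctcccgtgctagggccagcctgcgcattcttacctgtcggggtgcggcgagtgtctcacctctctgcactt
EGLN3 (chr14:33951025-33951324, minus strand): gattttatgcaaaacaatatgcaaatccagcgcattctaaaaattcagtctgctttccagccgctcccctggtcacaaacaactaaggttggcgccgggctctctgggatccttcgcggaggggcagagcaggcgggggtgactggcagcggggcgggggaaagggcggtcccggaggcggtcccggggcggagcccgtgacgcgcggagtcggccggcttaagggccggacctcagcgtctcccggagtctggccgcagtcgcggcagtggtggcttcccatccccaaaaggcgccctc
SLC2A1 (chr1:42958819-42959118, minus strand): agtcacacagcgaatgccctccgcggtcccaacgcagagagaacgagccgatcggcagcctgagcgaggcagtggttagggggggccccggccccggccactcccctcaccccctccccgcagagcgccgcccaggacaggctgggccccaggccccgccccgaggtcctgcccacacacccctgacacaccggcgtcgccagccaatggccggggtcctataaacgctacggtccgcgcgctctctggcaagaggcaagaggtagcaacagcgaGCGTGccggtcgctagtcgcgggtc
HK2 (chr2:74834920-74835219, plus strand, the second of its 2 windows): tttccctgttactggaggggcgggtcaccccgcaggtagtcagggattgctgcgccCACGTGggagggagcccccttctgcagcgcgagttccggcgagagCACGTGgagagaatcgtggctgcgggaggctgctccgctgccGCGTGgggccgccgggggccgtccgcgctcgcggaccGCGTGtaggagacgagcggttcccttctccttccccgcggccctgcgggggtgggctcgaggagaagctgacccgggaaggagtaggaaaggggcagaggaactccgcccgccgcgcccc
ALDOC (chr17:28576846-28577145, minus strand): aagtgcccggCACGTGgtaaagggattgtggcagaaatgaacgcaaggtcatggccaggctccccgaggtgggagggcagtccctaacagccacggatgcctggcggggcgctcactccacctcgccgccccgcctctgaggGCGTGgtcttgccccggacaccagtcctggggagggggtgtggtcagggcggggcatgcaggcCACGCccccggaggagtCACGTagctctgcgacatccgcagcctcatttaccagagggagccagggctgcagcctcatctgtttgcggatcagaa
LDHA (chr11:18394313-18394612, plus strand, the first of its 2 windows): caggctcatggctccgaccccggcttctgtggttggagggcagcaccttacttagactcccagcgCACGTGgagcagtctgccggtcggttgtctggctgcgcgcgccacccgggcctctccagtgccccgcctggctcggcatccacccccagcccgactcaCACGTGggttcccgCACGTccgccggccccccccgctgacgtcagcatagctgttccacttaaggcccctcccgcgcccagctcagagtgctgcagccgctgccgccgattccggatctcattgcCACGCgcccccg

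The window of ANKRD37 held 2 sites, 1 of them a CACGTG, that of EGLN3 held 0, and that of SLC2A1 held 1, a GCGTG at 25 bases after the start. The HK2 window shown held 4 sites, 2 of them CACGTG, the ALDOC window 4 and the LDHA window 4. Of these genes with several sites, ANKRD37 and ALDOC were higher on both arrays, ALDOC by 0.04 on B1, and HK2 and LDHA were lower on both, LDHA by -0.02 on B1. An ACGTG was found in 20 of the members' 51 windows (39.2%), beside 21.4% of all 35116 windows and 23.3% of the 21485 windows of measured genes. Either form of the core was found in 33 of the 51 (64.7%), beside 48.4% and 55.0%. By gene, 16 of 27 members had an ACGTG in some window (59.3%), beside 28.8% of measured genes with a window. Either form was found in 24 of the 27 (88.9%), beside 62.3% of those genes. The members had 51 windows for 27 genes, and measured genes 21485 windows for 15382. The members thus had more windows per gene in which a match could fall, which raises their share by gene.

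The 16 members with an ACGTG had median differences of -0.06 on B1 and -0.02 on B2, with 4 higher and 7 lower on both arrays. The 11 without one had medians of -0.01 and 0.12, with 4 higher and 4 lower on both. Of those 11, only PGAM1, EGLN3 and P4HA2 held neither form of the core, and the others held a GCGTG. The split is thus mostly by form of the core, and does not set genes with the core against genes without it. A match of letters is a description of the window, and the absence of one says only that the letters are not in these 300 bases, since elements in enhancers and introns lie outside.

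**Figure D5:**
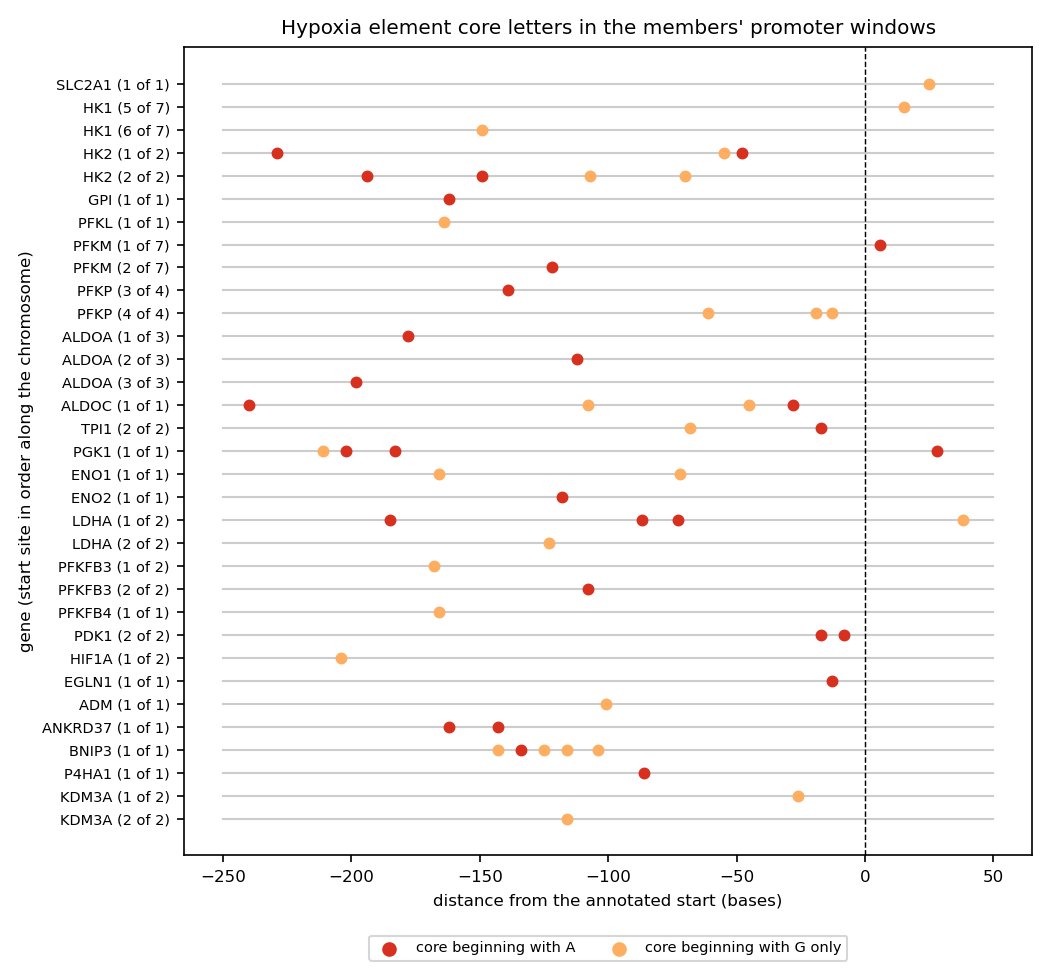
Positions, in bases from the annotated start (dashed line), of the hypoxia response element core in the 33 promoter windows of members that hold it; red marks are sites with a core beginning with A, orange marks those with only a core beginning with G, and the label gives the window's place among that gene's windows. The ANKRD37 window has 2 red marks, at -162 and -143, and the SLC2A1 window a single orange mark at 25.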

How the data were processed

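The labels give 3 Affymetrix arrays of biotin-labelled cRNA from KYSE140 RNA. The deposited values are intensities for 54675 probe sets per array, made by the authors with RMA (background correction, normalization between arrays and probe summary), per the submitters' processing notes; the version and chip definition are not stated there. RMA normally returns log2 values, but the deposited intensities ran from 3.03 to 19645 with array medians of 34.8 to 35.9, so they are linear, and log2 was taken with no pseudocount. No detection calls were used, and the number of arrays limits precision.

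After 62 control probe sets were left out, 41091 carried 1 symbol, 1801 several and 11721 were not listed. Symbols were updated by gene number to GRCh38.p14 (19734 of 19775 genes found). Cisplatin was compared with untreated using limma 3.58.1 in R 4.3.3 (lmFit, eBayes, Benjamini-Hochberg over all genes, threshold 0.05), with 1 residual and 2.01 prior degrees of freedom; the lone untreated array is assumed to vary like the cisplatin pair. Size counts asked for 2-fold on both arrays. Alternatives changed the probe set rule, dim-gene filter, normalization, centring, pseudocount, span trend, size threshold, variance prior and cisplatin arrays used. All members are named, and of each related list the 3 genes farthest from untreated on both arrays in 1 direction. Every probe set was described for members differing by at least 0.4 on both arrays in 1 direction, for HIF1A, HK1 and the glucose transporters, and for some others where probe sets disagreed. The members and lists were chosen with earlier results of these data known.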

Additional observations from a re-analysis of the deposited data

How the results depend on the processing

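No paired analysis was possible because the untreated array carries no replicate number shared with B1 or B2. No gene passed limma's adjusted test under any of the 7 alternatives that allow a test. The count of members at least 2-fold higher on both arrays was 0, and became 1 with quantile normalization, 1 (ANKRD37) at a 1.5-fold threshold, and 0 to 5 with a single cisplatin array. The count at least 2-fold lower was 0, and 0 to 1 with a single array. Members higher on both numbered 8 (11 on B1 alone, 15 on B2 alone), and members lower on both 13 (20 and 16). With the mean of all probe sets 10 were higher and 10 lower on both, and with quantile normalization 10 and 11. The dim-gene filter, centring, pseudocount and span trend gave 7 to 9 higher and 13 lower. The larger count of lower members thus depended on the probe set rule. The median of the members' mean difference, 0.02 as reported, was 0.042 over all probe sets, 0.0041 above a mean log2 of 6, 0.044 with quantile normalization, 0.0038 with centred arrays, -0.07 without the span trend, and -0.043 to -0.040 with a single array; the cause of these moves was not tested.

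The sign of the mean difference was kept under every alternative run for 19 of 31 members, ANKRD37, HK2, SLC2A1, EGLN1 and EGLN3 among them (EGLN3 is too dim for the filter). For 10 of the other 12 it turned with a single cisplatin array, and, partly among the same genes, for ENO2 and P4HA2 with quantile normalization, ENO1 and VEGFA over all probe sets, and ADM and BNIP3 without the span trend. For a member with the same sign on both cisplatin arrays, the single-array alternatives could not turn it. The dim-gene filter leaves the value of a kept member unchanged, so those alternatives say nothing about such members. With 1 untreated array, no spread of that group was measured.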
